A study of Oryzias melastigma with 12 samples.

Results

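Whole larvae of the marine medaka (Oryzias melastigma), a small euryhaline fish kept in seawater for ecotoxicology, were compared after 7 days in 20 nM and in 2 nM hexabromocyclododecane (HBCD). The comparison took the 3 arrays of the 20 nM group and the 3 arrays of the 2 nM group, 6 of the 12 arrays of the series, and all 26429 custom probes printed on them. It addresses whether the transcript response to HBCD had levelled off by 2 nM or went on changing up to 20 nM.

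The 20 nM larvae and the 2 nM larvae were treated alike apart from the concentration, and so were the groups at 0.2 nM and at 0 nM (solvent control), with 3 arrays each, which entered the same model. Larvae within 24 h of hatching were placed in dishes of 100, all dishes including the controls held dimethyl sulfoxide diluted 1 in 30000, and 90% of the water was changed daily. Each array carried Cy3-labelled RNA of 1 pool of 30 whole larvae, so that differences between organs, sexes or single fish are averaged, and the concentrations are the nominal ones of the labels. The files name each probe only by its number in the custom design. Of the 26429 probes, 0 could be joined to a gene name here, so the labelled tissue could not be set against marker genes and no pathway list was counted.

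HBCD is a brominated flame retardant that was added to polystyrene foam and textiles without being bound to them. It is fat-soluble, persists in sediment and accumulates along aquatic food chains. In rats it induces liver enzymes that metabolise foreign compounds and disturbs thyroid hormones, and in fish larvae, which live through the end of yolk absorption at this age, oxidative stress and effects on the heart are among the effects studied.

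The placing of the arrays on the slides bears on every value below. All 3 arrays at 20 nM lay on 1 slide together with replicate 1 at 2 nM, while replicates 2 and 3 at 2 nM lay on another slide with 2 arrays at 0.2 nM. The 3 solvent controls lay with 0.2 nM replicate 3 on a slide that held no array at 2 nM or 20 nM. The slides were scanned separately. In differences of the 2 nM and 20 nM groups from control, concentration and slide cannot be told apart. Across the 11910 tested probes, replicate 1 at 2 nM correlated with the 20 nM arrays of its slide at a mean Pearson's r of 0.993 (3 pairs) and with the other 2 nM arrays at 0.984 (2 pairs). The 20 nM arrays correlated with each other at 0.991 (3 pairs), and replicates 2 and 3 at 2 nM at 0.992. These values describe the arrays, since probes are not replicates.

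The arrays of both groups overlapped in signal, while local background differed between the slides. At 20 nM 11629, 11879 and 12117 probes (lowest, median and highest array) were well above background, against 11910, 12137 and 12177 at 2 nM (exact permutation test, two-sided p = 0.2, where 20 rearrangements allow no p below 0.1). The 75th percentile of the signal was 335 to 368 intensity units at 20 nM and 293 to 366 at 2 nM (p = 0.2, same exact test). Median local background was 33.5, 34 and 34 intensity units at 20 nM and 32.5 in replicate 1 at 2 nM. It was 37 and 38 in replicates 2 and 3 at 2 nM, on the other slide. The median SD of a probe between arrays was 0.157 on the log2 scale at 20 nM (n = 3) and 0.189 at 2 nM (n = 3), and it was 0.116 between replicates 2 and 3 at 2 nM, which shared a slide. Signal was not saturated on any spot (0 spots).

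No probe differed between 20 nM and 2 nM HBCD at an adjusted p of 0.05. In limma's moderated test, fitted over all 12 arrays with Benjamini-Hochberg adjustment, 0 of 11910 probes passed (0%), and the smallest adjusted p was 0.0995. At an unadjusted p under 0.05 there were 1785 probes (15%), 837 higher and 948 lower at 20 nM. That split moved with the scaling, to 1149 higher and 389 lower with the percentile taken over detected probes, 837 and 451 with median scaling, and 805 and 1660 with the normexp background correction. The median absolute difference was 0.168 on the log2 scale with a median standard error of 0.143, and 90% of probes differed by between -0.370 and 0.658. Fitted differences of at least 2-fold were seen in 187 probes that were higher at 20 nM and in 38 that were lower. The numbers were 57 higher and 100 lower on the shared slide, and with slide as a random block 52 and 49. Between the 2 nM arrays of the same exposure, 624 probes were higher by at least 2-fold on the slide of the 20 nM arrays and 71 lower. In RNA of whole larvae, fewer cells of a type and less RNA per cell cannot be told apart.

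That count of 0 rested on the arrays used. Without replicate 1 at 2 nM, the only 2 nM array on the slide of the 20 nM arrays, 1314 probes passed (900 higher, 414 lower at 20 nM). Without replicate 2 or replicate 3 at 2 nM, 4 probes passed each time, all lower at 20 nM. These were CUST_20931, CUST_22265, CUST_24352 and CUST_6795 without replicate 2, and CUST_15498, CUST_2394, CUST_8708 and CUST_8887 without replicate 3. Their differences were -3.06 to -2.17 without replicate 2 and -3.27 to -2.45 without replicate 3. The detection filter was applied anew for each left-out array, with 11976 and 12027 probes tested in these 2 fits. A probe could thus enter through the 2 remaining arrays of a group. Leaving out replicate 1, 2 or 3 at 20 nM gave 15, 10 and 8 probes, and leaving out replicate 2 at 0.2 nM gave 15. Leaving out any of the other 5 arrays gave 0. Arrays at 0.2 nM and controls do not enter the difference, so leaving one out changes only the estimate of the spread and the filter.

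**Figure D1:**
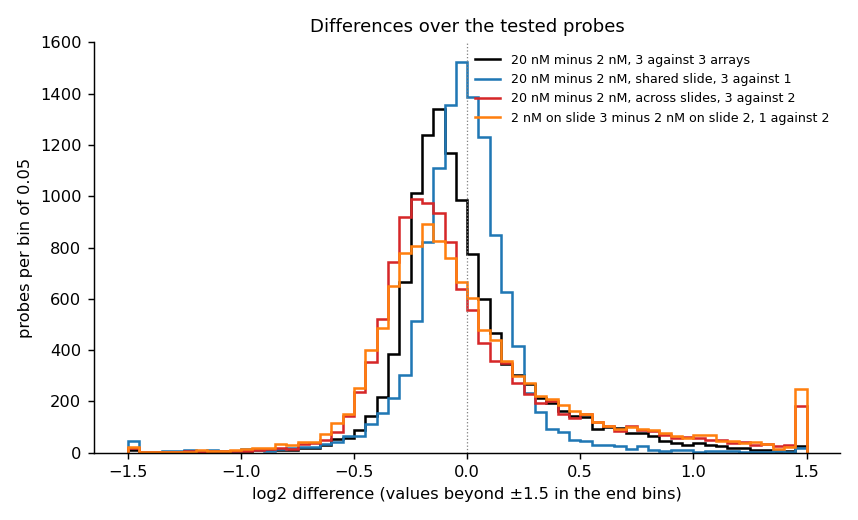
Number of tested probes (vertical axis, per bin of 0.05) at each log2 difference (horizontal axis). The lines show 20 nM minus 2 nM over all 6 arrays, on the shared slide (3 against 1 array) and across slides (3 against 2 arrays), and 2 nM on the slide of the 20 nM arrays minus 2 nM on the other slide (1 against 2). The distribution is narrowest on the shared slide, and the other 3 distributions have a longer tail on the right.

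On the shared slide 20 nM and 2 nM HBCD differed least. There the 3 arrays at 20 nM were set against the single 2 nM array next to them, which is assumed to vary like the arrays of the other groups. The median absolute difference was 0.110, and 412 of 11909 probes (3.46%) had an unadjusted p under 0.05, 143 higher and 269 lower at 20 nM. Across slides, with the 20 nM arrays against replicates 2 and 3 at 2 nM, the median absolute difference was 0.235. There 4201 probes (35.3%) had an unadjusted p under 0.05. The median standard error was 0.131 across slides and 0.165 on the shared slide, and a larger standard error lowers a count. After adjustment 2086 of 11910 probes passed across slides (17.5%), 1245 higher and 841 lower at 20 nM. The count was 1218 without 2 nM replicate 2, 1318 without 2 nM replicate 3 and 1378 without 20 nM replicate 3.

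A difference of similar size separated the 2 nM arrays from each other. Replicate 1 at 2 nM differed from replicates 2 and 3 at a median absolute difference of 0.241, and 959 of 11909 probes passed (8.05%), 822 higher and 137 lower on the slide of the 20 nM arrays. Without 20 nM replicate 1, which changes the estimate of the spread, 1463 passed. These arrays had the same exposure and differed in slide, scan and dish, which cannot be told apart. Across slides, concentration and slide cannot be told apart either.

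On the shared slide 10 probes passed (0.084%), all lower at 20 nM than in replicate 1 at 2 nM. Without the filter on dim probes 203 passed (4 higher, 199 lower). The differences of the 10 probes were -2.38 to -1.12 on the log2 scale. CUST_191 stood at -2.47, -2.35 and -2.60 in the 20 nM arrays, against -0.39 in replicate 1, -2.79 in replicate 2 and -2.78 in replicate 3 at 2 nM (levels are log2 intensity minus the array's 75th percentile). The 20 nM arrays lay below the 2 nM array of their own slide and above the other 2 nM arrays. The difference on the shared slide was -2.09 (SE 0.17, adjusted p = 0.0103 in limma), and over all 6 arrays it was -0.49 (SE 0.50, adjusted p = 0.611).

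CUST_1438 had levels of -3.11, -2.87 and -3.41 at 20 nM, against -1.15, -3.10 and -2.76 in replicates 1 to 3 at 2 nM. Here too the lone high value was replicate 1. Its difference was -1.98 on the shared slide (SE 0.25, adjusted p = 0.0335 in limma) and -0.79 over all 6 arrays (SE 0.40, adjusted p = 0.354). Without control replicate 1 or 2, or 20 nM replicate 1 or 3, the adjusted p on the shared slide was 0.0789, 0.0538, 0.0892 and 0.0574.

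In all 10 probes replicate 1 at 2 nM was the highest of the 12 arrays, by 1.57-fold to 3.13-fold over the next. The 20 nM arrays differed from replicates 2 and 3 at 2 nM by -0.588 to 0.311 in these probes. All 10 were printed once on the array, and 6 were well above background on all 6 arrays. On the 2 nM array they had processed signals of 80.8 to 394 intensity units over local backgrounds of 30 to 35. Their spots lay in rows 110 to 366 of 532 and columns 3 to 48 of 85. Spots marked as outliers had been left out beforehand, so a probe printed once could only be called from an unmarked spot. Every array had probes that were high on it alone, counted on probe averages, and the cause was not tested. Between 12 and 22 probes lay at least 2-fold above all 11 other arrays, with 22 on this array, 7 of them among the 10. The number that passed was 20 without 0.2 nM replicate 1 (7 higher), 21 without 0.2 nM replicate 2 (7 higher), 20 without 2 nM replicate 3 and 19 without 20 nM replicate 1 (5 higher).

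**Figure D2:**
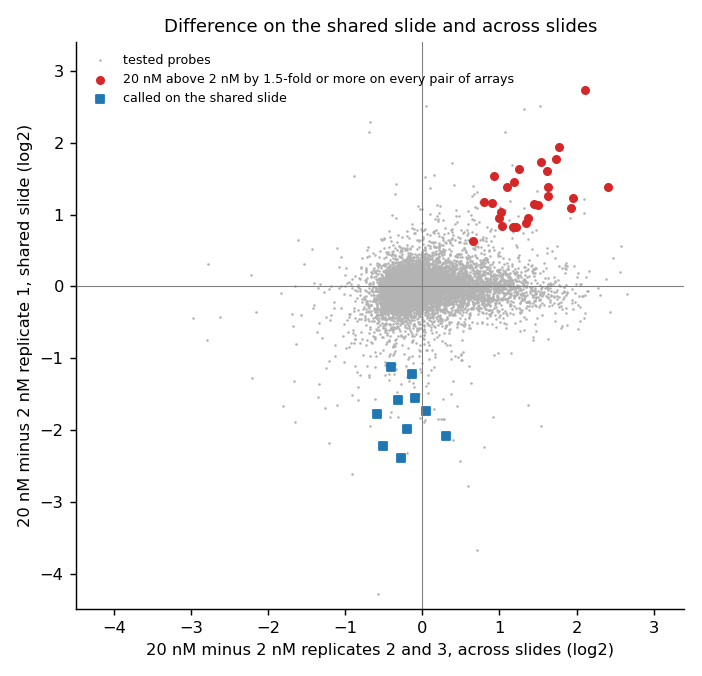
Each point is 1 tested probe, with the log2 difference of 20 nM minus 2 nM across slides (horizontal axis, against 2 nM replicates 2 and 3) and on the shared slide (vertical axis, against 2 nM replicate 1). The 10 probes called on the shared slide (squares) lie far below 0 on the vertical axis and between -0.588 and 0.311 on the horizontal axis, and the 26 probes in which every 20 nM array exceeded every 2 nM array by 1.5-fold (circles) are above 0 on both axes by the way they were chosen.

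The probes with the smallest p whose groups did not overlap were taken next. Their direction on each slide is set by that choice. It also favours large differences, so the sizes and intervals are descriptions of chosen probes. CUST_23524 stood at -1.25, -1.61 and -1.39 at 20 nM, against -2.26, -2.59 and -2.32 at 2 nM. All 20 nM arrays were higher than all 2 nM arrays. The difference was 0.97 (SE 0.12, 95% interval 0.70 to 1.25), or 1.96-fold, and it did not pass (limma adjusted p = 0.0995). On the shared slide it was 0.84 (SE 0.17, adjusted p = 0.206). The controls, at -1.69, -1.50 and -1.69, were above all 2 nM arrays and overlapped the 20 nM arrays. The 3 arrays at 0.2 nM, at -2.06, -2.18 and -2.27, were below all controls and overlapped the 2 nM arrays. In the 2 nM group the probe fell by 0.76 against control (limma adjusted p = 0.013), and the 20 nM group differed from control by 0.21 (adjusted p = 0.366).

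CUST_17512 stood at -1.45, -1.27 and -1.39 at 20 nM, against -2.82, -2.40 and -2.71 at 2 nM. The groups did not overlap. The difference of 1.28 (SE 0.18, 95% interval 0.87 to 1.68), or 2.42-fold, did not pass (limma adjusted p = 0.0995). It was 1.45 on the shared slide (SE 0.25, adjusted p = 0.145), the smallest p there among the probes higher at 20 nM that were well above background on all 6 arrays. The controls stood at -2.01, -2.16 and -2.15. The 20 nM level was 0.74 above control (adjusted p = 0.0573 in limma) while the 2 nM minus control difference was -0.54 (adjusted p = 0.154).

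Of the probes that were lower at 20 nM, CUST_14555 had levels of 2.44, 2.54 and 2.45 at 20 nM, against 2.90, 3.17 and 3.03 at 2 nM. The controls, at 2.26, 2.29 and 2.22, were lower than both groups. The difference of -0.55 (SE 0.12, 95% interval -0.81 to -0.29) did not pass (limma adjusted p = 0.329), and it was -0.42 on the shared slide (adjusted p = 0.457). At 2 nM the probe was above control by 0.78 (adjusted p = 0.011 in limma), at 20 nM by 0.22 (adjusted p = 0.309).

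CUST_10243 stood at -1.70, -1.67 and -1.74 at 20 nM, against -0.93, -1.41 and -1.07 at 2 nM. The groups did not overlap. Its difference of -0.56 (SE 0.12, 95% interval -0.83 to -0.29) did not pass (limma adjusted p = 0.329). CUST_764, printed 5 times per array, was taken by its p on the shared slide. It had levels of 2.62, 2.71 and 2.61 at 20 nM, against 2.10, 2.47 and 2.52 at 2 nM. Its difference was 0.55 on the shared slide (SE 0.10, adjusted p = 0.156 in limma) and 0.28 over all 6 arrays (SE 0.12, adjusted p = 0.329). Both groups lay below the controls, which stood at 2.77, 2.88 and 2.86.

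The calls of these probes changed with single arrays. CUST_23524 passed without 0.2 nM replicate 2 (adjusted p = 0.0236 in limma), 2 nM replicate 1 (0.00348), 20 nM replicate 1 (0.0481) or 20 nM replicate 2 (0.0162). CUST_17512 passed between the groups without 0.2 nM replicate 2 (adjusted p = 0.00248) or 2 nM replicate 1 (0.00864). On the shared slide it passed without 0.2 nM replicate 1 (0.0308) or 0.2 nM replicate 2 (0.0259). With only the 6 arrays fitted, neither passed (limma adjusted p = 0.229 for CUST_23524 and 0.0627 for CUST_17512). CUST_14555 and CUST_10243 passed without 2 nM replicate 1 (adjusted p = 0.0159 and 0.0401 in limma). With the normexp background correction the difference turned to -0.18 for CUST_23524, -0.13 for CUST_17512 and 0.12 for CUST_14555, and with implausible local backgrounds replaced first it did not turn for these 3 probes.

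**Figure D3:**
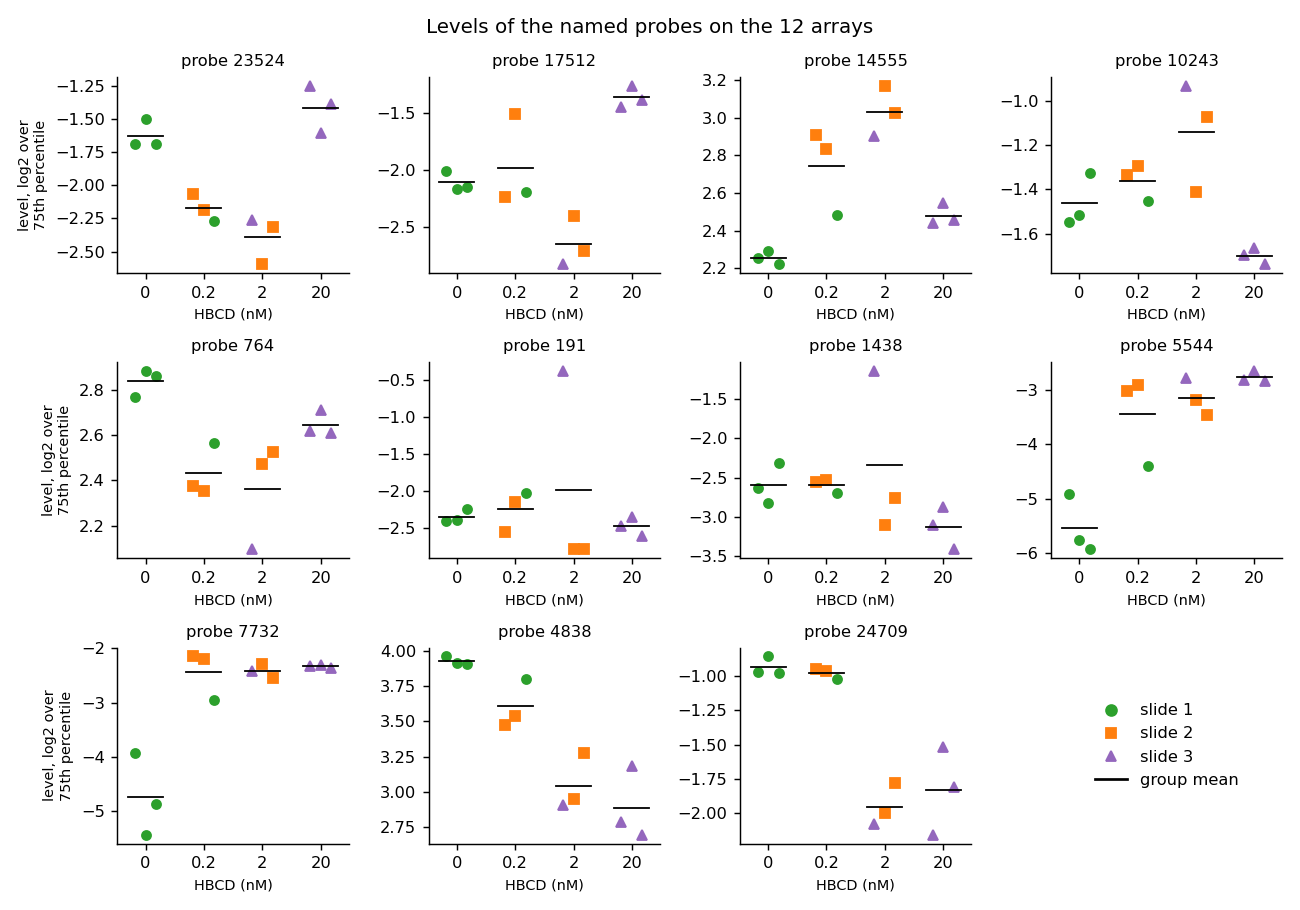
Level of each named probe on every array (vertical axes, log2 intensity minus the array's 75th percentile) by nominal HBCD concentration (horizontal axes, nM, with solvent control at 0). Each point is 1 array, its shape and colour give the slide, and bars are group means of 3 arrays. CUST_191 and CUST_1438 have 1 high array at 2 nM, and CUST_23524 and CUST_17512 have all 20 nM arrays above all 2 nM arrays.

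In 486 of the 11910 tested probes (4.08%) every 20 nM array was higher than every 2 nM array, and in 962 (8.08%) every one was lower. With a gap of at least 1.5-fold between the groups 26 probes (0.218%) remained on the higher side and 1 probe (0.0084%) on the lower side. This gap was chosen after the values were seen, so the 26 probes are described without a test. Their number was 103 with normexp and 4 with implausible local backgrounds replaced first. Their difference between 20 nM and 2 nM was 0.652 to 2.32 on the log2 scale (median 1.31), against a median of -0.076 over all tested probes. Their adjusted p in limma ranged from 0.0995 to 0.329. The choice by a gap on the same arrays favours passing, so the following counts are not a test of the 26. Without 0.2 nM replicate 2, which does not enter the difference, 14 of them passed (of 15 calls, 0.125% of the probes tested). Without 2 nM replicate 1, 21 passed (of 1314 calls, 10.9%). When arrays were weighted in the fit, 22 passed (of 1834 calls among the 11910 probes tested). The lowest weight there, 0.236, fell on 2 nM replicate 1, the only 2 nM array on the slide of the 20 nM arrays. Leaving out any other array gave 0 or 1 of the 26. The median difference of the 26 probes on the shared slide was 1.21, where the direction is set by the choice of the probes. The differences of the 8 probes that were not well above background on any 2 nM array rest on values near background, and for those 8 only a lower bound holds.

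The level of the 26 probes was then set against the controls. Relative to the control mean, the median over the 26 was 0.70, 0.86 and 0.84 in the 3 arrays at 20 nM, against -0.36, -0.48 and -0.60 in the 3 arrays at 2 nM. At 20 nM 25 of the 26 group means were above control, and at 2 nM 24 were below. The choice of these probes by a gap between the groups favours such a split, and the controls lay on another slide. Over all tested probes the median difference from control was -0.038 at 20 nM and 0.012 at 2 nM. Against control 4 of the 26 passed in limma at 20 nM (CUST_24248, CUST_4812, CUST_13044 and CUST_1729) and 2 at 2 nM (CUST_6130 and CUST_23524). Of all tested probes 2.96% passed at 20 nM and 2.73% at 2 nM, and the choice of the 26 favours such calls. The arrays at 0.2 nM did not sit together. Replicate 2 had a median of 0.78 and 23 of 26 probes above the control mean, as the 20 nM arrays did, while replicates 1 and 3 had medians of -0.27 and -0.006. In these probes the 3 controls had medians between -0.047 and 0.041.

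Examples chosen after their values were seen show the gap between 20 nM and 2 nM at different signal levels. CUST_15775 stood at -1.74, -1.40 and -1.40 at 20 nM, against -3.13, -3.11 and -3.15 at 2 nM, and CUST_17486 at -1.96, -1.85 and -1.92, against -3.30, -3.44 and -3.64. These 2 probes passed when only the 6 arrays were fitted (differences of 1.61 and 1.55, SE 0.14 and 0.13, limma adjusted p = 0.0329 for both). The brightest of the 26, CUST_21461, stood at 1.86, 2.21 and 2.18 at 20 nM, against 1.20, 0.92 and 0.55 at 2 nM. CUST_4812 stood at -2.59, -2.93 and -2.47 at 20 nM, against -4.44, -4.13 and -4.66 at 2 nM. It was not well above background on any 2 nM array, and it was at least 2.67-fold higher at 20 nM (limma adjusted p = 0.147). Of the 26 probes, 14 were well above background on all 6 arrays. All 26 were printed once.

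The 1 probe on the lower side, CUST_22492, stood at -4.93, -4.77 and -4.62 at 20 nM, against -3.08, -3.87 and -3.14 at 2 nM. It was not well above background on any 20 nM array, so that it was at least 1.29-fold lower there, and it did not pass (adjusted p = 0.329 in limma). The controls were spread, at -1.88, -3.89 and -4.63.

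**Figure D4:**
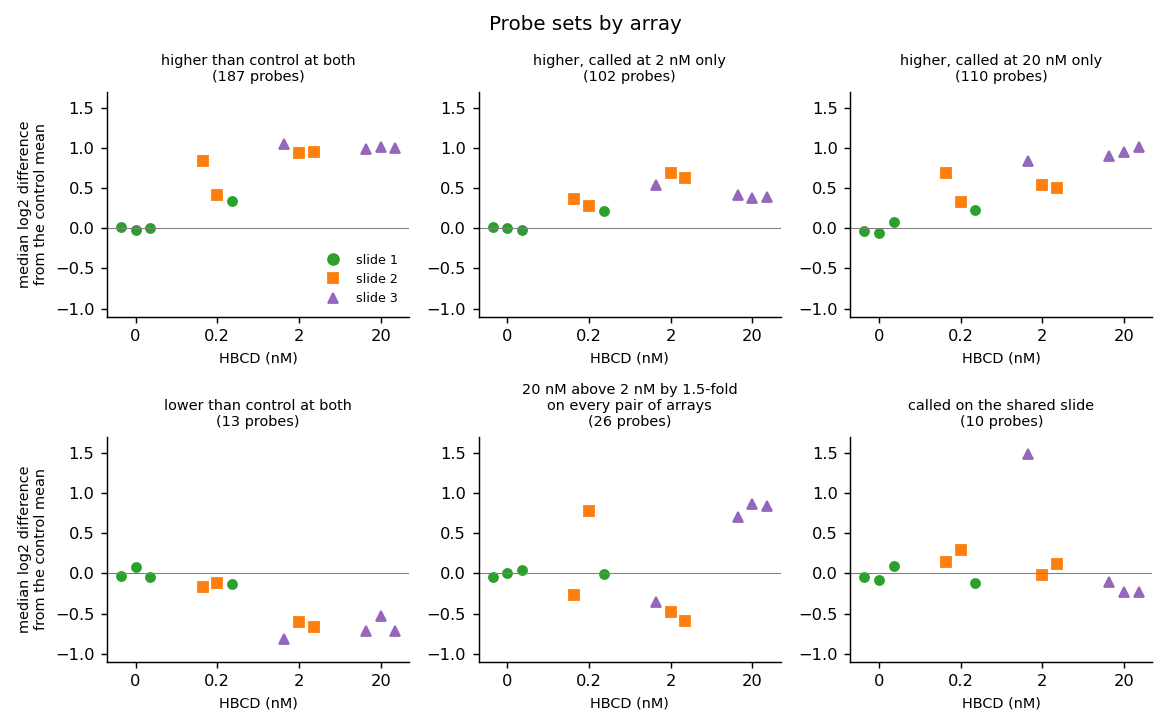
Median log2 difference from the control mean over each set of probes (vertical axes) on every array, by nominal HBCD concentration (horizontal axes, nM, with solvent control at 0). Each point is 1 array, and its shape and colour give the slide. The 187 probes above control at both concentrations have medians of 0.99 to 1.02 at 20 nM and 0.94 to 1.06 at 2 nM, and the 26 probes with a gap of 1.5-fold have 0.2 nM replicate 2 at 0.78, near the 20 nM arrays.

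Few probes were well above background on every array of 1 group and on none of the other. Of the 26429 probes, 10699 were well above background on all 6 arrays and 12256 on none. Another 3423 were so on some of the 6 arrays without such a split by group. There were 19 probes well above background on all 3 arrays at 20 nM and on none at 2 nM, which were brighter at 20 nM, with a median lower bound of 1.86-fold and a highest of 2.67-fold. In the opposite direction 32 probes were well above background on all 3 arrays at 2 nM and on none at 20 nM. For 30 of them a bound above 1 could be given, and they were dimmer at 20 nM, with a median lower bound of 1.34-fold and a highest of 2.63-fold. Of these probes 0 passed in limma, and 19 of each kind had an unadjusted p under 0.05, against 15% of all tested probes. Their choice by detection on the same arrays favours a low p. The bounds set the mean of the brighter group against the mean of the dimmer arrays, each taken at the higher of its own value and the lowest signal of a probe well above background.

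The difference between the groups was also described by its 95% interval. The fit had no slide term, and replicates 2 and 3 at 2 nM lay on another slide than the 20 nM arrays. Its interval therefore bounds concentration and slide together, and not concentration alone. For 7632 of 11910 probes (64.1%) the interval of the difference between 20 nM and 2 nM lay within 1.5-fold in either direction, and for 10307 (86.5%) within 2-fold. With slide as a random block the numbers were 8089 (67.9%) and 10558 (88.6%). On the shared slide these were 7449 (62.5%) and 10380 (87.2%). The share within 1.5-fold depended on signal. With the probes cut into 3 equal parts by mean level, it was 39.3% in the lowest part, 67.5% in the middle and 85.4% in the highest. Probes printed once had an interval within 1.5-fold in 62.0% of 9688 cases, probes printed 5 times in 73.2% of 2215. For the remaining probes a difference over 1.5-fold could not be left out at this precision.

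The probes called against control were then followed over the step from 2 nM to 20 nM. Against control, 352 of 11910 probes (2.96%) passed at 20 nM and 325 (2.73%) at 2 nM. Both comparisons use the same control arrays, on a slide without 2 nM or 20 nM arrays, so concentration and slide cannot be told apart in them. The 6 exposed arrays that chose the probes also give the difference, so the following values are descriptions. In the 187 probes above control at both concentrations, the median difference from control was 1.003 at 20 nM and 1.005 at 2 nM. The median difference between 20 nM and 2 nM was 0.013 (range -0.400 to 0.623), with 103 probes further from control at 20 nM and 84 nearer to it. Over all tested probes the median was -0.076, with 4404 probes higher and 7506 lower at 20 nM. With the percentile taken over detected probes the 187 had a median of 0.084, and all tested probes -0.005. Of the 187 probes 0 passed between the concentrations and 8 (4.28%) had an unadjusted p under 0.05, against 15% of all tested probes. The interval lay within 1.5-fold for 114 (61.0%) and within 2-fold for 175 (93.6%), against 64.1% and 86.5% of all tested probes. The median difference of the 187 probes was -0.080 on the shared slide, and the interval lay within 1.5-fold for 91 (48.7%), against 62.5% of all tested probes.

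By array, the median of the 187 probes over the control mean was 0.99, 1.02 and 1.01 at 20 nM, against 1.06, 0.94 and 0.95 at 2 nM. The groups overlapped. At 0.2 nM the arrays had medians of 0.85, 0.42 and 0.35. In 34 of the 187 probes no control array was well above background, so their fitted difference from control rests on values near background. The 13 probes below control at both concentrations had a median difference from control of -0.68 at 20 nM and -0.71 at 2 nM. Their median difference between 20 nM and 2 nM was 0.003, and the interval lay within 1.5-fold for 12 of 13. The median was 0.154 on the shared slide, with 8 of 13 within 1.5-fold.

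Probes that passed against control at only one of the concentrations shifted towards that concentration, as their choice makes them do. The 110 probes above control at 20 nM but not called at 2 nM had medians over control of 0.95 at 20 nM and 0.65 at 2 nM, and none passed between the concentrations (0 called). In these probes replicate 1 at 2 nM had a median of 0.84 over control and the other 2 nM arrays 0.55 and 0.50, and the difference on the shared slide had a median of 0.077. The 102 probes above control at 2 nM but not called at 20 nM had medians of 0.38 at 20 nM and 0.63 at 2 nM (0 called). On the shared slide their median difference was -0.157.

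Of the 187 probes above control at both concentrations, 171 were well above background on all 6 arrays. Among these, CUST_5544 and CUST_7732 had the highest summed fitted differences from control, a rank that rests on control values mostly below detection. CUST_5544 stood at -2.81, -2.65 and -2.83 at 20 nM, against -2.77, -3.18 and -3.46 at 2 nM. It was not well above background in any control, and it was at least 2.30-fold above control at 20 nM and at least 1.78-fold at 2 nM (limma adjusted p = 0.0078 and 0.0117). The groups overlapped, with a difference of 0.38 (SE 0.38, 95% interval -0.46 to 1.21). CUST_7732 stood at -2.32, -2.31 and -2.36 at 20 nM, against -2.42, -2.29 and -2.55 at 2 nM, and at -3.93, -5.44 and -4.87 in the controls, of which 1 was well above background. Its difference between the concentrations was 0.09 (SE 0.32, 95% interval -0.62 to 0.80), so that neither a 1.5-fold rise nor a 1.5-fold fall lies outside the interval.

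Of the 13 probes below control at both concentrations, 9 were well above background on all 6 arrays. The 2 of these 9 that fell most were brighter than CUST_5544 and CUST_7732 and had narrower intervals. CUST_4838 stood at 2.79, 3.18 and 2.70 at 20 nM, against 2.91, 2.95 and 3.27 at 2 nM, and at 3.96, 3.91 and 3.91 in the controls. Exposed and control arrays did not overlap, while the 20 nM and 2 nM arrays did. It fell by 1.04 on the log2 scale against control at 20 nM and by 0.88 at 2 nM (limma adjusted p = 0.0084 and 0.0141), and the difference between them was -0.15 (SE 0.15, 95% interval -0.48 to 0.17). CUST_24709 stood at -2.15, -1.52 and -1.81 at 20 nM, against -2.08, -2.00 and -1.78 at 2 nM, and at -0.97, -0.86 and -0.98 in the controls. At 0.2 nM it was still at -0.95, -0.96 and -1.02. Between 20 nM and 2 nM it differed by 0.12 (SE 0.15, 95% interval -0.20 to 0.45), and this value was -0.030 without 20 nM replicate 2.

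**Figure D5:**
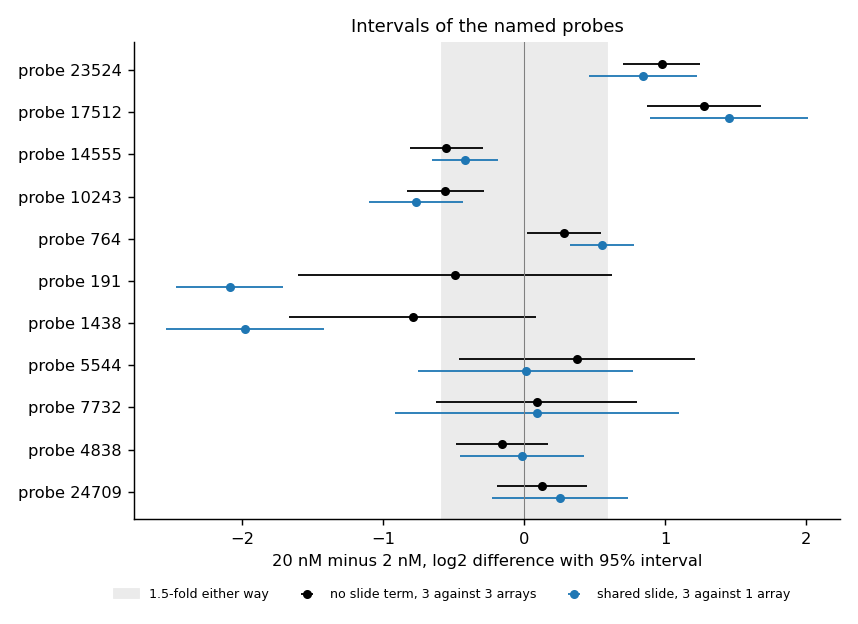
Difference of 20 nM minus 2 nM for each named probe (horizontal axis, log2, points with 95% intervals from limma) over all 6 arrays (upper point of each pair) and on the shared slide with 3 against 1 array (lower point). The shaded band marks 1.5-fold in either direction. CUST_764, CUST_4838 and CUST_24709 have intervals within the band over all 6 arrays, and CUST_5544 and CUST_7732 have intervals that cross it on at least one side.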

How the data were processed

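Per the labels' protocols, RNA of 12 pools of 30 larvae was hybridised to Agilent 4x44K arrays with 1 dye. The authors deposited scanner intensity values of 43277 custom spots per array, read with Feature Extraction 10.7.3.1 per the file headers (10.7 per the submitters' processing notes), which subtracts background. A second table deposited by the authors holds log2 values (uncentred, column medians 4.34, r with the own array at least 0.999); the sources used here do not name its program. Processed intensity was log2 transformed and scaled to the 75th percentile of each array. Spots marked as outliers were left out (507 to 729 per array), and repeated spots were averaged per probe. A probe was tested (11910 of 26429) where some group had it well above background, by the scanner's mark, on each of its 3 arrays. limma 3.58.1 in R 4.3.3 was fitted over the 4 groups without a slide term, and over the 6 combinations of group and slide for contrasts within and across slides. The fits were tested on simulated data without a slide difference, so that test does not cover the slide differences of these arrays. Figures were drawn with matplotlib.

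The named probes were taken among those well above background on all 6 arrays. For all 6 arrays and for the shared slide, 2 higher and 2 lower at 20 nM were taken without overlap between groups. Called probes came first, by size of the difference, and then uncalled ones by smallest p. The others are the 2 highest and 2 lowest by the summed difference from control among those called at both concentrations. Members, sets and tests were chosen with earlier results of these data known. Deviations of same-numbered arrays at 20 nM and 2 nM correlated at 0.049, 0.203 and -0.095 for replicates 1, 2 and 3, so the numbers were not taken as pairs.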

Additional observations from a re-analysis of the deposited data

How the results depend on the processing

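The 0 calls between 20 nM and 2 nM HBCD held under detected-percentile, median and quantile scaling, the authors' deposited table, both background corrections, both filters, an intensity trend and slide as a random block. The count was 10 with slide as a fixed block, which equals the shared-slide contrast, 2 with only the 6 arrays, 1834 with array weights (987 higher, 847 lower, with weights of 0.236 for 2 nM replicate 1 and 0.310 for 20 nM replicate 1), 2 with joint adjustment over the 3 differences between exposures (CUST_23524 and CUST_6130), and 0 to 1314 without single arrays. A fit with the replicate number as a block gave 0 calls. Scaling moved the share of probes higher at 20 nM among those at an unadjusted p under 0.05 between 74.7% (percentile over detected probes) and 32.7% (normexp), against 46.9%. It was 65.0% with median scaling, which shifted the median of all probes to -0.117. The shared slide gave 20 calls with repaired normexp, in which implausible local backgrounds on 4 arrays were replaced, 203 without a filter (4 higher, 199 lower) and 7 to 21 without single arrays. Between the slides at 2 nM there were 698 to 1463 calls without single arrays. Across slides, 20 nM and 2 nM gave 1032 calls without a filter and 1218 to 3010 without single arrays. Without single arrays 6115 to 7796 intervals lay within 1.5-fold and 9807 to 10531 within 2-fold, and the median of the 187 probes was -0.018 to 0.086. As alternatives added after seeing the data, groups apart by 1.5-fold numbered 103 higher and 29 lower with normexp, 4 and 0 with repaired normexp, and 0 lower with the detected percentile. With normexp the difference reversed for CUST_23524 (-0.18), CUST_17512 (-0.13), CUST_14555 (0.12), CUST_5544 (-0.75), CUST_7732 (-0.70), CUST_4838 (0.52) and CUST_24709 (-0.58). With repaired normexp it reversed for CUST_7732 (-0.037) and CUST_24709 (-0.012), and CUST_24709 ranged from -0.030 to 0.289 without single arrays. The cause was not tested. Normexp used the median spot signal, since the files used here hold no mean signal. Dim probes, whose signal lies near background, have the widest intervals.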
